A study of Mus musculus with 48 samples.

Results

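At postnatal day 10 (P10), O4+ cells and CD11B+ cells of pups that had received PBS, the vehicle control, were compared on 6 arrays each. Members were chosen by their labels, as the PBS samples of stage P10, which gave 12 of the 48 samples of the series. O4 is a surface antigen of late oligodendrocyte progenitors and immature oligodendrocytes, and CD11B is the integrin subunit encoded by Itgam that marks microglia and other myeloid cells. The series asked how early systemic inflammation alters oligodendrocyte maturation, and the PBS arrays at P10 give the baseline from which the 2 sorted populations can be told apart. The samples came from male pups, named swiss in the labels and OF1 in the methods, that were injected intraperitoneally with PBS from P1 to P5 and left without injection until P10. Neither the labels nor the methods name a transgene or deletion for these pups, and PBS was the only agent they received. Brains without cerebellum and olfactory bulbs were dissociated with papain, the methods state that 3 brains were pooled per sample, and O4+ cells were taken first and CD11B+ cells second on magnetic beads, with no culture step. A magnetic column enriches and does not purify to single-cell identity, so each sample is a bulk population defined by its antigen, and the labels do not say which O4+ and CD11B+ samples shared a pool. The stage was taken from the title, source and stage fields, although the free-text field of these samples still reads P5. RNA was labelled with Cy3 and hybridised to a 1-color Agilent array with 55681 probes besides the controls, and levels are given as log2 of the quantile-normalized intensity. Nothing in the labels says that the 6 samples of a group came from separate litters, so the p-values measure the spread between these samples.

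Oligodendrocytes arise from progenitors that express the PDGF receptor, pass through a premyelinating stage in which Olig1, Olig2, Sox10 and Nkx2-2 are joined by the myelin regulators Nkx6-2 and Myrf, and then build a membrane rich in cholesterol, galactolipid and a small set of structural proteins. In the rodent forebrain the second postnatal week is the time when myelin genes come up. Microglia descend from yolk-sac progenitors, depend on the transcription factors PU.1 (Spi1) and IRF8 and on CSF1R signalling, and serve as the phagocytes and cytokine source of the tissue. Both populations meet in the white matter, where microglia read ligands on neural cells through receptors such as CX3CR1, CD200R and SIRP alpha and release growth factors that reach the oligodendrocyte lineage.

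The 12 arrays were similar in quality. Between 56.9% and 59.7% of probes were well above background on the O4+ arrays, and between 55.4% and 58.6% on the CD11B+ arrays, and no spot was saturated. Correlations over all probes lay between 0.985 and 0.993 among O4+ arrays, between 0.984 and 0.989 among CD11B+ arrays, and between 0.91 and 0.924 across the cell types. No slide held arrays of both groups: 5 O4+ arrays shared 1 slide and 4 CD11B+ arrays another, so that slide and cell type cannot be told apart in these 12 arrays alone. O4+ replicate 6 lay on a different slide scanned on a different day, and without it 12311 probes were called higher in O4+ cells and 11209 lower, by the rule given below. CD11B+ replicate 6 stood apart from the other 5 CD11B+ samples. It had the highest value of its group for 11 of 11 neutrophil and monocyte markers and for 14 of 16 major histocompatibility complex (MHC) genes, and the lowest for 11 of 17 structural myelin genes. It was also the highest CD11B+ array for 11 of 12 astrocyte, 9 of 10 pericyte, 9 of 9 fibroblast and 8 of 8 ependymal and choroid plexus markers. CD11B+ replicate 2 was highest for 12 of the 17 myelin genes, and O4+ replicate 3 was highest among the O4+ samples for 20 of 22 microglial identity genes.

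Calls required that the medians of the groups differed over 1.5-fold and that the adjusted p was below 0.05. By this rule 12353 probes were higher in O4+ cells and 11263 were higher in CD11B+ cells, which is 22.2% and 20.2% of the 55681 probes. They represented 6944 and 5932 gene symbols. The groups did not overlap on 10250 and 9700 of these probes, and the ratio exceeded 4 on 4818 and 4301. A total of 1065 probes higher in O4+ cells were above background on all 6 O4+ and on no CD11B+ array, and 934 were so in the opposite sense. Without CD11B+ replicate 6, 12271 probes were higher in O4+ cells and 11356 in CD11B+ cells. The gene lists below hold 653 genes with a probe, of which 251 were higher in O4+ cells, 317 were higher in CD11B+ cells and 85 were not called. These shares describe lists that were drawn up around the 2 cell types and are not a result of their own. Where a gene had several probes, the one with the most signal over the 48 arrays was used, and genes with probes called in opposite directions are named. Other genes whose probes differed are named only in part.

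The sorted antigens and their lineages were checked first. Sox10, the transcription factor that defines the oligodendrocyte lineage, ranged from 15.48 to 16.17 on the O4+ arrays with a median of 15.58, and from 10.67 to 11.08 on the CD11B+ arrays with a median of 10.93. No array of one group reached the other, and the difference was 4.78 ± 0.12 (log2, SE, n = 6 per group, adjusted p = 1.18e-11). Tmem119, a surface protein of microglia, had a lowest, median and highest value of 11.06, 11.41 and 11.92 in O4+ cells against 16.06, 16.26 and 16.42 in CD11B+ cells. It was lower in O4+ cells by 4.82 ± 0.14 (adjusted p = 4.57e-11), again without overlap. Itgam itself had 3 probes that disagreed. The probe at chr7:135260275-135260334 (mm9) was lower in O4+ cells by 5.06 and the one at chr7:135212140-135212199 by 2.93, whereas the brightest probe, at chr7:135261755-135261814, was higher in O4+ cells by 2.16, with levels of 16.85 ± 0.12 and 14.69 ± 0.19 (SD, n = 6). Csf1r, the receptor that microglia need to survive, was lower in O4+ cells on its 3 probes, by 4.81, 4.21 and 3.07. Siglech, a microglial lectin, fell by 5.01 and 2.48 on 2 probes and was not called on the third, the brightest, with a difference of 0.30. Of the 207 list genes with over 1 probe, 27 had probes whose differences spanned over 2 on the log2 scale, and 4 (Itgam, Tfeb, Heph and Cp) had probes called in opposite directions.

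Oligodendrocyte transcription factors stood higher in O4+ cells without exception. The 12 listed factors were called, with a median difference of 4.27 against a median of 0 over all probes. Olig1, which together with Olig2 specifies the lineage, had a difference of 4.03 ± 0.08 (adjusted p = 3.96e-12) and Olig2 one of 3.88 ± 0.08 (adjusted p = 5.65e-12). Nkx6-2, a homeobox regulator of myelin genes, differed by 6.30 ± 0.47 (adjusted p = 1.56e-07) and was above background on 3 of 6 CD11B+ arrays. Myrf, the factor that switches on myelin genes in differentiating cells, was above background on 6 O4+ and on no CD11B+ array and was at least 19.2-fold higher in O4+ cells (adjusted p = 2.02e-08). For Zfp488 and Tcf7l2, which promote differentiation, the brightest probe gave 0.85 and 0.74, while another probe of Zfp488 gave 5.04 and the other probes of Tcf7l2 gave 1.71 and 1.90.

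Both ends of the O4+ window were represented. Among 12 progenitor genes, 11 were higher in O4+ cells, with a median difference of 3.23. Pdgfra, the PDGF receptor of progenitors, ranged from 14 to 15.01 on the O4+ arrays with a median of 14.55, and from 11.35 to 12.01 on the CD11B+ arrays with a median of 11.59. The groups were apart by 2.82 ± 0.18 (adjusted p = 4.99e-08). Cspg4, the NG2 proteoglycan, differed by 2.84 ± 0.18 and Vcan, a secreted proteoglycan of progenitors, by 4.07 ± 0.09. Tmem100 was the exception, at 10.03 ± 0.10 and 9.77 ± 0.13 (SD, n = 6). The 12 premyelinating genes were called higher in O4+ cells, with a median of 3.89. Gpr17, a receptor confined in the lineage to the premyelinating stage, stood at 18.24, 18.35 and 18.47 (lowest, median and highest) in O4+ cells and at 14.9, 15.2 and 15.36 in CD11B+ cells. Its difference was 3.20 ± 0.08 (adjusted p = 1.35e-11), and Gpr17 was far above background in both populations. Enpp6, a choline phosphodiesterase of newly formed oligodendrocytes, differed by 6.03 ± 0.19 (adjusted p = 8.21e-11) and Bcas1, another marker of that stage, by 5.49 ± 0.12 (adjusted p = 6.38e-12).

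Structural myelin genes had the largest median difference toward O4+ cells among the lists. The 17 genes were called higher in O4+ cells, with a median of 5.19 and a range from 1.30 to 6.15. Mog, a late protein of the outer myelin surface, had a lowest, median and highest value of 12.72, 13.11 and 13.52 in O4+ cells and of 6.68, 7.82 and 8.77 in CD11B+ cells. It differed by 5.28 ± 0.31 (adjusted p = 1.9e-08), with no overlap. Cnp, the myelin phosphodiesterase, differed by 5.19 ± 0.14, Mag, the adhesion protein that faces the axon, by 5.02 ± 0.25, Cldn11, which forms the tight junctions of the sheath, by 5.86 ± 0.33, and Mobp, a protein of compact myelin, by 6.15 ± 0.42. The connexins Gjc3 and Gjb1, which form gap junctions in oligodendrocytes, differed by 5.88 and 4.24. Mbp, the protein that compacts the sheath, had 3 probes with differences of 7.10 ± 0.28, 1.30 ± 0.04 and 0.90 ± 0.17, of which the first had a ratio of medians of 131, the largest on the O4+ side among probes above background on all 12 arrays with no overlap. Ermn, a cytoskeletal protein of mature oligodendrocytes, differed by 4.79 on 1 probe and by 1.61 on the brightest, where the groups overlapped and the call was lost with slide as a fixed block over 24 arrays (0.78, adjusted p = 0.101).

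**Figure D1:**
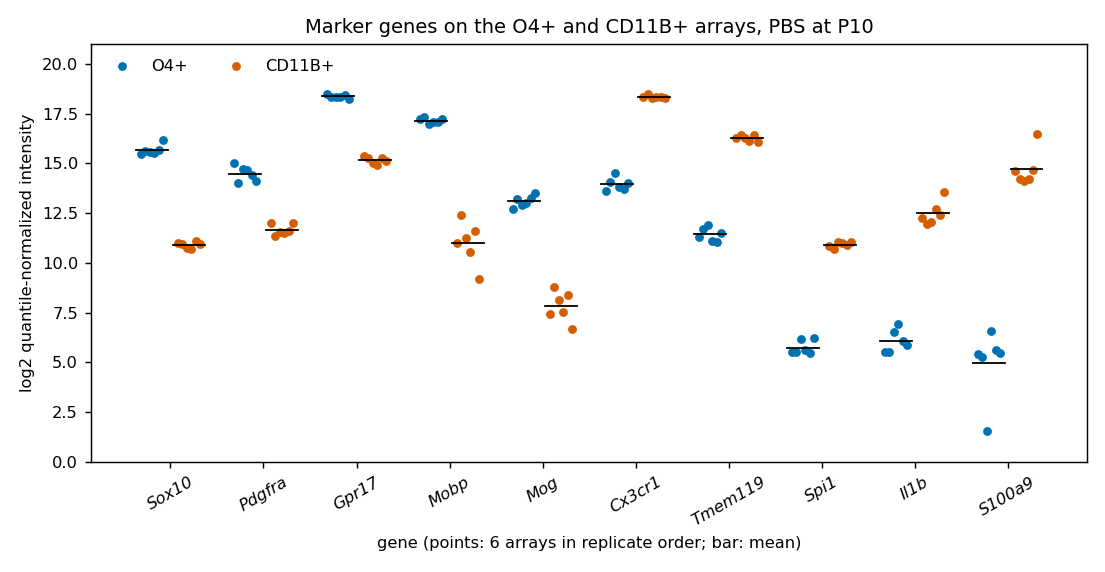
Log2 quantile-normalized intensity (y axis) of 10 genes on each of the 12 arrays (points; O4+ and CD11B+ PBS samples at P10), with the mean of each group as a bar. The groups do not overlap for any of the 10 genes, Mobp and Mog are spread over more than 2 log2 units on the CD11B+ arrays, and S100a9 is highest on CD11B+ replicate 6.

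Myelin transcripts were measured on the CD11B+ arrays too, and their level there varied more than that of most genes. Summed over the 17 genes on the linear scale, the signal lay between 1073064 and 1248992 on the O4+ arrays and between 25861 and 87161 on the CD11B+ arrays, a ratio of medians of 24.4, which was 22.9 without CD11B+ replicate 6 and 26.2 without replicate 2. The top of the CD11B+ range was replicate 2, with Mog at 8.77 and Mobp at 12.38, and the bottom was replicate 6, with Mog at 6.68 and Mobp at 9.19. The SD over the 6 CD11B+ arrays was 0.76 for Mog and 1.08 for Mobp, against 0.28 and 0.12 over the O4+ arrays and a median SD over all probes of 0.22 in CD11B+ cells. By contrast Sox10 and Olig2 had SDs of 0.15 and 0.15 on the CD11B+ arrays, and Sox10 on replicates 2 and 6 differed by less than 0.1, at 10.92 and 10.95. The arrays cannot tell apart transcripts inside CD11B+ cells, other cells in the sample and free RNA.

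Enzymes of the myelin membrane lipids followed the structural genes. Of 15 lipid enzymes 14 were higher in O4+ cells, with a median of 2.58. Ugt8a, which makes galactosylceramide, differed by 5.55 ± 0.25 (adjusted p = 1.46e-09), Fa2h, which hydroxylates its fatty acid, by 5.52 ± 0.24, and Gal3st1, which sulfates it to the lipid that the O4 antibody binds, by 5.20 ± 0.10 (adjusted p = 3.67e-12). Sgms1, a sphingomyelin synthase, was the 1 enzyme not called, at 0.58 ± 0.07. Of 20 cholesterol synthesis enzymes 19 were higher in O4+ cells, with a median of 2.18 and no member higher in CD11B+ cells. Idi1, which isomerises the isoprenoid building block, ran from 13.88 to 14.17 on the O4+ arrays with a median of 14.02, against 11.06 to 11.38 with a median of 11.21 in CD11B+ cells. Its difference was 2.80 ± 0.07 (adjusted p = 1.35e-11), without overlap, and Ebp, a sterol isomerase, had a difference of -0.51 ± 0.08 and a ratio of 1.45. Leaving out O4+ replicate 2, 5 or 6 brought Ebp past the ratio of 1.5, with differences of -0.53, -0.51 and -0.56. The carriers and exporters of cholesterol pointed the other way. Apoe, the main lipid carrier of the brain, was between 15.22 and 15.87 in O4+ cells (median 15.48) and between 17.54 and 17.89 in CD11B+ cells (median 17.69). Of 16 genes of lipid efflux and uptake 11 were higher in CD11B+ cells and none in O4+ cells, with Apoe lower in O4+ cells by 2.21 ± 0.11, the exporter Abca1 by 2.56 ± 0.09, the lipase Lpl by 3.95 ± 0.13 and the scavenger receptor Msr1 by 4.58 ± 0.16. The sterol regulators Srebf1 and Srebf2 were not called, at -0.01 ± 0.08 and 0.43 ± 0.10. With its probes averaged, Srebf2 was called higher in CD11B+ cells, at -1.51 (limma, adjusted p = 1.45e-08).

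Microglial identity genes stood on the CD11B+ side. Of 22 genes 20 were higher in CD11B+ cells, and the 2 that were not were Itgam and Siglech, whose brightest probes are described above. The median difference was -4.72, and the widest was that of Gpr84, a fatty acid receptor, at -5.40. Cx3cr1, the fractalkine receptor, had a lowest, median and highest value of 13.62, 13.89 and 14.51 in O4+ cells and of 18.27, 18.32 and 18.47 in CD11B+ cells. It was lower in O4+ cells by 4.38 ± 0.13 (adjusted p = 4.58e-11). P2ry12, the ADP receptor of resting microglia, ranged from 10.4 to 12.33 (median 11.35) and from 15.74 to 16.41 (median 16.12), a difference of -4.69 ± 0.27. Trem2, a lipid receptor, and its partner Tyrobp differed by -4.76 ± 0.11 and -4.53 ± 0.11. Slc2a5, a fructose transporter, was spread more widely, with SDs of 1.21 and 1.20, at a difference of -5.37 ± 0.66.

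These genes were not absent from the O4+ arrays. The 22 genes were above background on each of the 6 O4+ arrays, and their summed signal there was 292287 to 387701, against 1737380 to 1975494 in CD11B+ cells, a ratio of medians of 5.54. The brightest probes of Itgam (mean 16.85) and Siglech (16.51 to 17.06) carried much of the O4+ sum, so this ratio does not describe the other genes of the list. The highest sum belonged to O4+ replicate 3, where Cx3cr1 stood at 14.51, and the lowest to replicate 6, where both of these probes were also lowest. In these bulk samples fewer cells of a type and less RNA per cell cannot be told apart, and whether the transcripts came from microglia in the O4+ fraction, from free RNA or from O4+ cells was not tested. Without O4+ replicate 3 the median difference of the list was -4.86. The immune lists that follow can be read beside the median of -4.72.

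**Figure D2:**
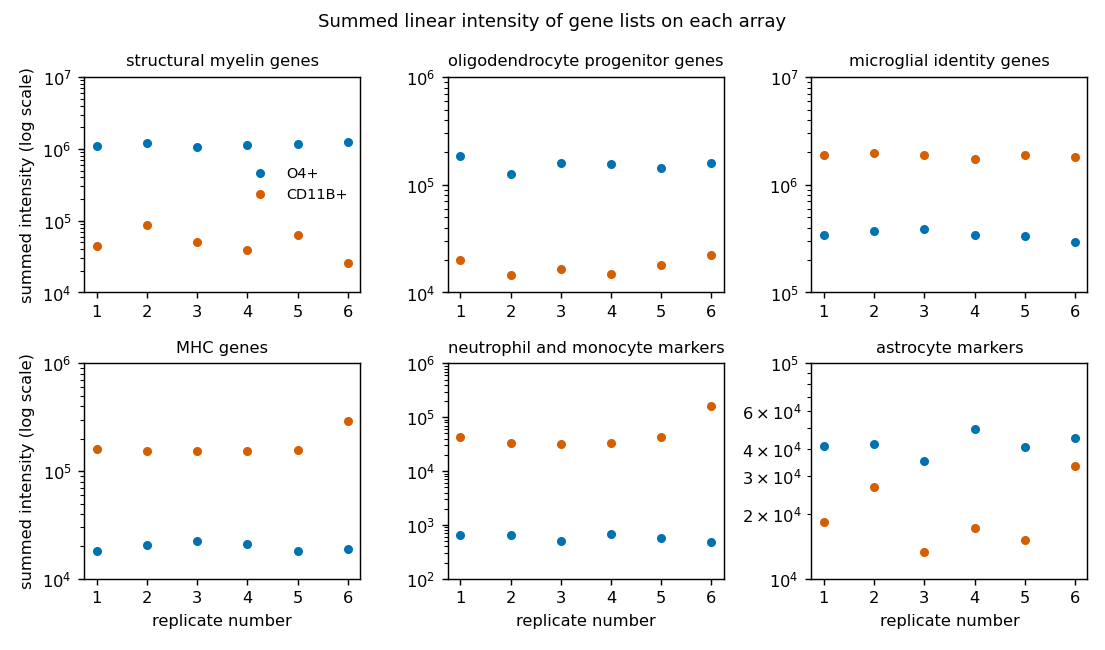
Summed linear intensity (y axis, log scale) of 6 gene lists on each of the 12 arrays, with replicate number on the x axis. Myelin differs 24.4-fold between the medians, and CD11B+ replicate 6 holds the highest neutrophil and MHC sums and the lowest myelin sum of its group.

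The transcription factors of the myeloid lineage were called higher in CD11B+ cells, 17 of 17, with a median of -4.83 beside the -4.72 of the identity genes. Spi1, which encodes PU.1, the master regulator of the lineage, had a lowest, median and highest value of 5.45, 5.55 and 6.22 in O4+ cells and of 10.69, 10.93 and 11.04 in CD11B+ cells. It was lower in O4+ cells by 5.18 ± 0.15 (adjusted p = 3.42e-11), with no overlap. Irf8, its partner, differed by -5.24 ± 0.12, Runx1, a factor of early hematopoiesis, by -5.49 ± 0.11, and Sall1, a repressor that keeps microglia distinct from other macrophages, by -4.01 ± 0.12. The smallest differences were those of Sall3, at -2.13 ± 0.16, and Mef2a, at -3.14 ± 0.09 (-3.20 without CD11B+ replicate 6).

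Receptors for antibody and microbial products showed the same order of size. The 16 genes of Fc receptors and their adaptors were higher in CD11B+ cells, with a median of -5.01. Fcgr4, a receptor for IgG, differed by -5.16 ± 0.23 (-4.96 without CD11B+ replicate 6), Inpp5d, the lipid phosphatase SHIP1 that limits such signals, by -4.99 ± 0.15, and Vav1, an exchange factor of hematopoietic cells, by -4.91 ± 0.12. Plcg2, a phospholipase downstream of these receptors, differed least, by -1.85 ± 0.11. Of 22 Toll-like receptor genes and adaptors 21 were higher in CD11B+ cells, with a median of -4.46. Tlr2, which senses bacterial lipopeptides, differed by -5.31 ± 0.09 (adjusted p = 2.31e-12), its co-receptor Tlr1 by -3.64 ± 0.07 and Cd14, which hands lipopolysaccharide to TLR4, by -5.67 ± 0.16. Tlr9, a sensor of DNA, differed by only -0.94 ± 0.12, and Irak1, a kinase used widely outside the immune system, was not called, at -0.26 ± 0.06.

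The promoters of these genes were read from RefSeq (GRCm38.p6), over the 250 bases before each start and on both strands, for the letters GAGGAAGT, a form of the site that PU.1 binds. They stood in 2.44% of the 32851 promoters of the table. In the Fc receptor list 3 of 15 promoters held them (20%) and in the Toll-like receptor list 1 of 20 (5%), while 0 of 18 promoters of microglial identity genes, 0 of 19 of myeloid transcription factors and 0 of 18 of structural myelin genes did. The 4 matches lay within 30 bases of the start, and all 4 are shown. The Fc receptor and Toll-like receptor lists that hold them had median differences of -5.01 and -4.46. The microglial identity genes and myeloid transcription factors, with no match, had medians of -4.72 and -4.83. Each line gives the 100 bases before the start, 5′ to 3′ on the gene's strand, with the letters of the match, on either strand, in capitals.
Fcgr4: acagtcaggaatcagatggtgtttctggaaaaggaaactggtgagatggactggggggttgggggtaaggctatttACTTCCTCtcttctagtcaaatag
Inpp5d: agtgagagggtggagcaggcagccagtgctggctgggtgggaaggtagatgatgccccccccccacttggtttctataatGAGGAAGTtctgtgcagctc
Tlr1: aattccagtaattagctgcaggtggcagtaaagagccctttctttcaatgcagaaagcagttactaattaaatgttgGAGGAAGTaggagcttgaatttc
Vav1: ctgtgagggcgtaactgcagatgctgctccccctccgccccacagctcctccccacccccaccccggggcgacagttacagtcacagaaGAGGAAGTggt
The windows are chr1:171018826-171018925 (plus strand) for Fcgr4, chr1:87620212-87620311 (plus) for Inpp5d, chr5:64933559-64933658 (minus) for Tlr1 and chr17:57279000-57279099 (plus) for Vav1. On the oligodendrocyte side the letters ACAAAG, a core that SOX proteins bind, stood in 16.5% of all promoters, and in 8 of 18 promoters of structural myelin genes (44.4%), which belong to 6 genes, since Gjb1 has a match at 2 start sites and the 1 match of Mag lies in 2 overlapping windows. They stood in 1 of 8 promoters of the lineage transcription factors (12.5%), in 1 of 12 of the premyelinating genes (8.33%), in 4 of 18 of the microglial identity genes (22.2%), in 3 of 19 of the myeloid transcription factors (15.8%), in 0 of 15 of the Fc receptor list and in 8 of 20 of the Toll-like receptor list (40%). These 8 Toll-like receptor promoters belong to 7 genes, since Irak1 has 2 overlapping windows. Matches within 100 bases of the start were found on both sides of the comparison: in Gjb1, Tcf7l2 and P2ry13, and in Ly86, Tlr3, Tlr6, Tlr9 and Traf6 of the Toll-like receptor list. Tspan2, a tetraspanin of early myelin whose difference was 5.68 ± 0.29, and Mag also had the letters there and are printed as examples.
Tspan2: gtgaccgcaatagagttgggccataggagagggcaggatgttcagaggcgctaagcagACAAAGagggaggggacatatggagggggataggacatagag
Mag: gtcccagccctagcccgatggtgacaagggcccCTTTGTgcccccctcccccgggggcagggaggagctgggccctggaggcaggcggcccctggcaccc
These windows are chr3:102735115-102735214 (plus) and chr7:30914923-30915022 (minus). A match is a description of the letters and not a binding site.

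Complement and antigen presentation divided into microglial and shared parts. Of 18 complement genes 13 were higher in CD11B+ cells, with a median of -2.78 (-2.56 without CD11B+ replicate 6). The 3 chains of C1q, the recognition protein of the classical pathway, differed by -4.59 ± 0.12 (C1qa), -4.85 ± 0.13 (C1qb) and -4.46 ± 0.12 (C1qc), beside the -4.72 of the microglial identity genes. The inhibitors Cd55, which takes apart the convertases, and Serping1, which blocks C1, were higher in O4+ cells by 0.90 ± 0.21 (adjusted p = 0.00266) and 0.91 ± 0.27 (adjusted p = 0.0115), with overlapping groups, and the call of Serping1 was lost with slide as a random block (adjusted p = 0.0671). Without CD11B+ replicate 6 these differences were 1.07 and 1.16. C4b stood between 9.72 and 10.11 on 5 CD11B+ arrays and at 12.52 on replicate 6, and its difference of -2.23 ± 0.42 became -1.80 without that sample. Of 16 MHC genes 15 were higher in CD11B+ cells, with a median of -3.05 (-2.82 without CD11B+ replicate 6). Cd74, the invariant chain of class II molecules, was at 5.34, 5.95 and 6.42 in O4+ cells and at 11.19, 11.62 and 13.21 in CD11B+ cells (lowest, median and highest), a difference of -5.94 ± 0.32 (adjusted p = 8.24e-09) and of -5.67 without CD11B+ replicate 6, the highest array. B2m, the light chain of class I molecules, differed by -3.90 ± 0.16, and by -3.80 without that array. The class II chain H2-Ab1 overlapped between the groups, since it ranged from 7.89 to 11.91 over the O4+ arrays and from 11.38 to 12.92 over the CD11B+ arrays, and its call was lost with slide as a random block (adjusted p = 0.0771). Without CD11B+ replicate 6 its difference was -1.93 (adjusted p = 0.0438). The summed MHC signal was 289001 on CD11B+ replicate 6 and 152712 to 160512 on the other 5 CD11B+ arrays. Probes of H2-K1 and H2-D1, which are close paralogs, may share signal.

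Most cytokine genes were higher in CD11B+ cells. Of 32 chemokines and interleukins 22 were higher in CD11B+ cells, 8 were higher in O4+ cells and 2 were not called. Il1b, the cytokine whose injection the series studies, had a lowest, median and highest value of 5.51, 5.97 and 6.91 in O4+ cells and of 11.94, 12.32 and 13.58 in CD11B+ cells. It was lower in O4+ cells by 6.42 ± 0.32 (adjusted p = 3.5e-09), a ratio of medians of 81.7. Ccl3, a chemokine for monocytes, ranged from 8.5 to 9.7 (median 9.31) and from 14.83 to 15.27 (median 14.91), a difference of -5.68 ± 0.18 (adjusted p = 7.59e-11). Further large differences were those of Cxcl2 (-6.43 ± 0.21), Cxcl1 (-6.23 ± 0.21), Ccl7 (-6.16 ± 0.10), Il1a (-6.39 ± 0.23), Cxcl10 (-5.87 ± 0.22), Tnf (-5.76 ± 0.24) and Ccl2 (-5.59 ± 0.13). Il6 was above background on no O4+ array and at least 15.6-fold higher in CD11B+ cells, and Il10 at least 6.84-fold. The median difference of the 32 genes was -4.7, close to the -4.72 of the microglial identity genes, and 15 of the 32 lay below -4.72. The 2 medians were alike, but that of the 32 genes pools 22 genes higher in CD11B+ cells with 8 higher in O4+ cells. The 32 genes ranged from -6.43 to 3.22, against -5.40 to 2.16 for the microglial identity genes. The differences of Il1b and Ccl3, and those listed from Cxcl2 to Ccl2, were all wider than that of Gpr84 (-5.40). What part of the remaining cytokine signal on the O4+ arrays follows the microglial signal there was not tested. Ccl5 rested on 1 sample, at 11.77 on CD11B+ replicate 6 and 7.91 to 8.43 on the other 5, and its difference of -1.76 ± 0.57 (adjusted p = 0.0209) became -1.17 without it and was not called with slide as a random block (adjusted p = 0.0674).

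Higher in O4+ cells were 8 ligands of the list. Cx3cl1 is described with its receptor below. Il17d, a member of the IL17 family, was higher in O4+ cells by 3.22 ± 0.10 (adjusted p = 5.23e-11), Cxcl14 by 2.15 ± 0.26, Cxcl12, which guides progenitors and neurons, by 1.92 ± 0.14 and Tgfb2 by 1.54 ± 0.17, without overlap in these 4 cases. Il33, a nuclear alarmin, and Il34 were higher in O4+ cells by 1.20 ± 0.29 (adjusted p = 0.00328) and 0.91 ± 0.22 (adjusted p = 0.00319), with overlapping groups. The call of Il34 was lost with normexp background correction (0.59) and with slide as a fixed block over 24 arrays (0.70, adjusted p = 0.0709). Cxcl5 was called although it was above background on no array, and no level is drawn from it.

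Receptors for these ligands lay mostly on the CD11B+ side. Of 34 cytokine and chemokine receptors 27 were higher in CD11B+ cells and 3 in O4+ cells, with a median of -2.81. Il10ra, the ligand-binding chain for IL10, differed by -5.45 ± 0.13, Tnfrsf1b, the second TNF receptor, by -5.40 ± 0.23, and Il6ra by -4.77 ± 0.14. Tnfrsf1a, the more widely expressed TNF receptor, differed less, by -2.29 ± 0.09, and so did the interferon receptor chains Ifngr1 (-2.96 ± 0.10) and Ifnar2 (-1.07 ± 0.06), while Ifnar1 was not called, at -0.16 ± 0.04. With its probes averaged, Ifnar1 was called higher in CD11B+ cells, at -0.64 (limma, adjusted p = 4.38e-06). Il1r1, the signalling receptor of IL1B, was close between the populations, at 5.19 ± 0.58 and 5.90 ± 0.24 (SD, n = 6), with overlapping groups, a difference of -0.71 ± 0.24 (adjusted p = 0.0271) and a ratio of 1.51, barely past the threshold. The call was lost when O4+ replicate 1, 5 or 6 or CD11B+ replicate 3, 4 or 6 was left out, with differences between -0.71 and -0.54, and with scaling to the 75th percentile (adjusted p = 0.055). Its co-receptor Il1rap was higher in O4+ cells by 1.41 ± 0.14 (adjusted p = 2.08e-06), whereas the decoy receptor Il1r2 was lower in O4+ cells by 4.09 ± 0.38. Osmr, the oncostatin M receptor, and Ackr3, a scavenger of CXCL12, were the other 2 receptors higher in O4+ cells, by 1.29 ± 0.22, with overlapping groups, and 0.79 ± 0.13. Among 25 NF-kappaB and STAT genes 21 were higher in CD11B+ cells, with a median of -2.19. The induced regulators Tnfaip3 (-5.54 ± 0.13) and Nfkbiz (-5.27 ± 0.16) differed most, the inhibitor Nfkbia differed by -4.18 ± 0.11, Rela, the widely expressed subunit, by -1.47 ± 0.04, and Nfkbib was the 1 member higher in O4+ cells, by 0.96 ± 0.12.

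Genes of white-matter and disease-associated microglia, a phagocytic state of the early postnatal and the injured brain, were higher in CD11B+ cells in 17 of 19 cases, with a median of -4.02. Clec7a, a beta-glucan receptor, differed by -6.21 ± 0.23, Spp1, the secreted protein osteopontin, by -5.45 ± 0.34, and Itgax, the integrin CD11c, by -5.32 ± 0.23. Without CD11B+ replicate 6 Clec7a and Itgax differed by -6.03 and -5.15, and the median of the list was -3.83. The 2 exceptions, Cd9 and Fabp5, are a tetraspanin and a fatty acid binding protein that oligodendrocytes also make, and they were higher in O4+ cells by 1.77 ± 0.14 and 2.82 ± 0.16. The 11 genes of border-associated macrophages, which live in the meninges and around vessels and carry CD11B, were higher in CD11B+ cells, with a median of -3.71. Mrc1, the mannose receptor, differed by -4.07 ± 0.10, and Pf4, a chemokine of these cells, by -3.67 ± 0.11, both less than most microglial identity genes, and Cd163, a hemoglobin scavenger, was at least 10.5-fold higher.

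Ligand and receptor pairs between the populations could be read side by side. The fractalkine ligand Cx3cl1 was between 11.52 and 12.28 in O4+ cells (median 12.01) and between 8.98 and 9.61 in CD11B+ cells (median 9.25), a difference of 2.70 ± 0.14 (adjusted p = 4.3e-09) opposite to that of its receptor Cx3cr1. Cd200, a membrane ligand that restrains myeloid cells, stood at 10.12, 10.63 and 10.92 in O4+ cells and at 7.59, 8.04 and 8.2 in CD11B+ cells, a difference of 2.60 ± 0.16. Its receptor Cd200r1 was above background on 6 CD11B+ arrays and on no O4+ array, at least 10.6-fold higher in CD11B+ cells (adjusted p = 4.93e-07). Cd47, the signal read by SIRP alpha, was higher in O4+ cells by 0.75 ± 0.07 and Sirpa lower by 4.19 ± 0.09. Of the 2 ligands of CSF1R, Csf1 was lower in O4+ cells by 1.80 ± 0.11, and Il34, whose call depended on the settings named above, differed by 0.91 ± 0.22. Among the TAM receptors, which recognise dying cells through the bridging proteins Gas6 and Pros1, Tyro3 was between 15.18 and 15.48 in O4+ cells (median 15.34) and between 9.73 and 10.57 in CD11B+ cells (median 10.18). It was higher in O4+ cells by 5.17 ± 0.12 (adjusted p = 8.23e-12), while Mertk and Axl were lower by 4.72 ± 0.08 and 1.11 ± 0.20, and so were both bridging proteins, Gas6 by 2.78 ± 0.04 and Pros1 by 3.89 ± 0.08. For the TGF beta axis that maintains microglia, Tgfb1 and its presenting protein Nrros were lower in O4+ cells by 4.70 ± 0.15 and 4.90 ± 0.11, and Lrrc32, the presenting protein of other cells, was higher by 1.41 ± 0.18.

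**Figure D3:**
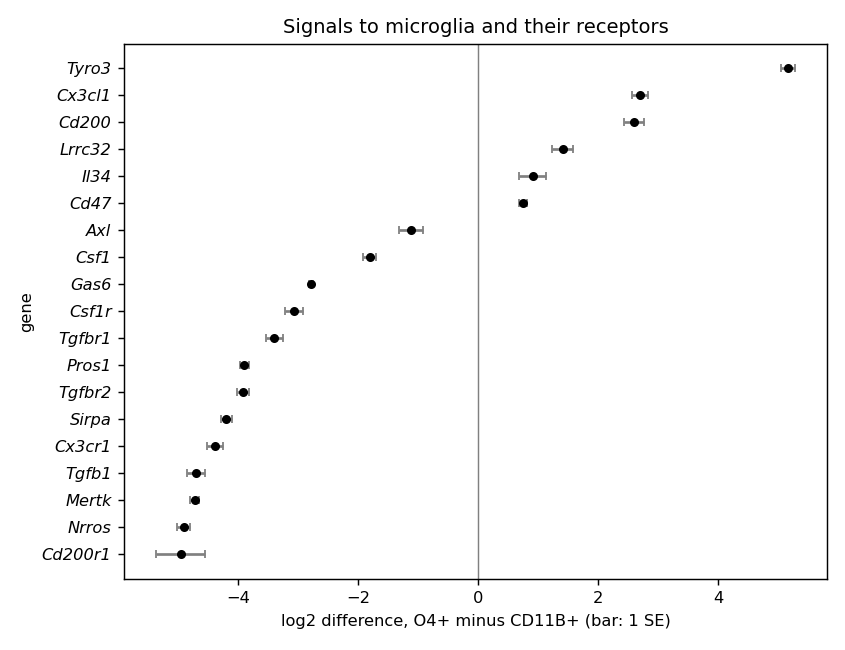
Difference of mean log2 intensity, O4+ minus CD11B+ (x axis), for 19 signals to microglia and their receptors (y axis), with bars of 1 SE from limma, n = 6 per group. Cx3cl1, Cd200, Cd47, Il34, Lrrc32 and Tyro3 lie right of 0, and the other 13 genes, among them Cx3cr1 and Sirpa, lie left of it.

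Growth factors and receptors of the oligodendrocyte lineage were higher in O4+ cells for 16 of 26 genes and in CD11B+ cells for 6. Pdgfa, the mitogen of progenitors, was itself higher in O4+ cells, by 3.29 ± 0.10 (adjusted p = 4.18e-11), Lgi3, a secreted ligand of ADAM proteins, by 5.87 ± 0.27, Erbb4, a neuregulin receptor, by 3.89 ± 0.09, and Ntrk3, the receptor of neurotrophin-3, by 2.91 ± 0.14. Igf1, a growth factor that promotes myelination, was higher in CD11B+ cells on 4 of its 5 probes, by 4.13 ± 0.15 on the brightest. Its receptor Igf1r was close between the populations, at 10.97 ± 0.03 and 10.39 ± 0.09 (SD, n = 6), and was not called, with a ratio of 1.48 that passed 1.5 without CD11B+ replicate 3, 5 or 6. Nrp1 and Itga6 were lower in O4+ cells by 2.70 ± 0.24 and 3.88 ± 0.16. Erbb3 was not called, and 1 array, CD11B+ replicate 5, stood at 8.29 while the other 5 lay between 1.49 and 3.05, and without that array, with no CD11B+ array above background, it was called at least 2-fold higher in O4+ cells (adjusted p = 2.31e-06).

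Receptors for purines divided by subtype. Of 18 genes 7 were higher in O4+ cells and 10 in CD11B+ cells. The microglial side held P2ry6, a UDP receptor linked to phagocytosis (-4.97 ± 0.15), P2rx1 (-4.94 ± 0.10), Adora3 (-5.43 ± 0.13) and Entpd1, the ectoenzyme that degrades ATP (-4.20 ± 0.17), and the O4+ side held P2ry1 (2.98 ± 0.17), Adora1 (2.73 ± 0.18) and Nt5e, the enzyme that makes adenosine from AMP (3.25 ± 0.20). Of 24 glutamate and GABA receptor genes 22 were higher in O4+ cells and none in CD11B+ cells, with a median of 2.88. Grik3 and Gria4, subunits of kainate and AMPA receptors, differed by 4.51 ± 0.11 and 4.18 ± 0.11, and Grin2b and Grm3 were not called, though Grm3 was called without CD11B+ replicate 6, at 0.94. Of 27 ion channels and connexins 16 were higher in O4+ cells and 10 in CD11B+ cells. Kcnj10, the inward rectifier Kir4.1, differed by 3.76 ± 0.13 and Kcna1, a delayed rectifier, by 5.06 ± 0.14, while Hvcn1, the proton channel of phagocytes, and Kcnk6 differed by -5.42 ± 0.18 and -5.08 ± 0.13. Of 20 proteoglycan and matrix genes 16 were higher in O4+ cells, with Adamts4, a protease of mature oligodendrocytes, at 5.75 ± 0.24, Tnr at 4.83 ± 0.11 and Bcan at 3.59 ± 0.08. Hapln2, a link protein of the node of Ranvier, was above background on 6 O4+ arrays (6.79 to 8.24) and on no CD11B+ array (1.54 to 1.59), and was at least 11.6-fold higher in O4+ cells. Mmp9, a protease of neutrophils and macrophages, was at least 24.4-fold higher in CD11B+ cells.

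Housekeeping functions of the cells differed in part. Of 29 lysosomal genes 24 were higher in CD11B+ cells, with a median of -2.36. Lamp1 was not called, at 17.03 ± 0.07 and 17.04 ± 0.08, and Galc, which breaks down galactosylceramide, was higher in O4+ cells by 0.79 ± 0.14. Among 19 iron genes 5 were higher in O4+ cells and 6 in CD11B+ cells. The exporter Slc40a1 and the phagosomal transporter Slc11a1 were lower in O4+ cells by 3.50 ± 0.14 and 5.25 ± 0.16, and Trf, the iron carrier that oligodendrocytes secrete, stood at 15.99 ± 0.25 and 15.91 ± 0.10, with overlapping groups. Of 23 genes of glycolysis and lactate transport 10 were higher in O4+ cells and 5 in CD11B+ cells, and the isoenzymes divided, with Pfkp at 2.87 ± 0.11 and Hk2 and Hk3 at -3.32 ± 0.08 and -5.09 ± 0.15. Of 30 cytoskeletal genes 15 were higher in O4+ cells and 13 in CD11B+ cells. The microtubule genes Map1b (6.16 ± 0.11) and Mapt (4.82 ± 0.10) and the actin-severing protein gelsolin, Gsn (4.76 ± 0.18), were on one side, and the leukocyte genes Rac2 (-5.17 ± 0.10), Myo1f (-5.13 ± 0.18) and Coro1a (-4.47 ± 0.12) on the other.

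Cell cycle genes were lower in the O4+ cells. Of 28 genes 22 were higher in CD11B+ cells and 3 in O4+ cells, with a median of -2.15. Mki67, which marks cycling cells, was between 11.2 and 11.7 on the O4+ arrays (median 11.47) and between 14.05 and 14.36 on the CD11B+ arrays (median 14.23), a difference of -2.73 ± 0.09 (adjusted p = 9.43e-11). Top2a, an enzyme of mitosis, and the helicase subunit Mcm3 differed by -2.93 ± 0.09 and -2.77 ± 0.10. The 3 members higher in O4+ cells were Cdkn1c, an inhibitor that goes with cell cycle exit in the lineage (3.33 ± 0.08), Ccnd2 (1.63 ± 0.23) and Cdk4 (1.02 ± 0.05).

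**Figure D4:**
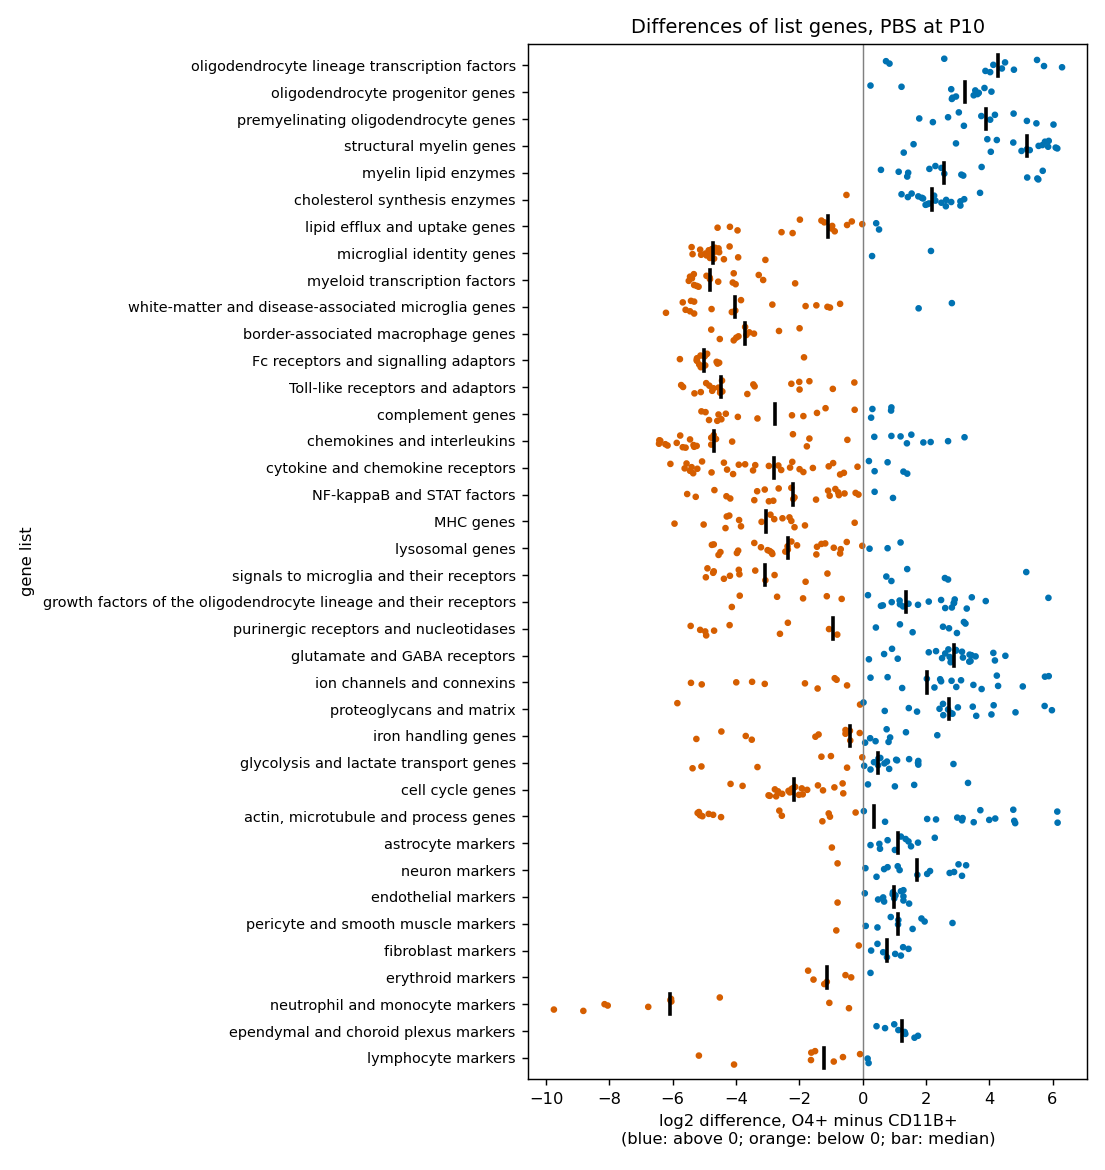
O4+ minus CD11B+ log2 differences (x axis) of the genes of 38 lists (y axis): points are genes, 1 probe each, blue above 0 and orange below 0, and bars are list medians. Structural myelin genes have a median of 5.19, neutrophil and monocyte markers one of -6.07, and chemokines and interleukins lie on both sides of 0.

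Markers of other cell types were read on the same arrays. Neutrophil and monocyte markers were higher in CD11B+ cells for 10 of 11 genes, with a median of -6.07 (-5.99 without CD11B+ replicate 6), and 1 of the 11, Ly6g, was not called. On the O4+ side 5 of the 11 were above background on no array, so the size of this median is imprecise and is not comparable with that of the microglial identity genes. S100a9, a calcium-binding protein of neutrophils, was at 1.53, 5.43 and 6.59 in O4+ cells and at 14.12, 14.41 and 16.48 in CD11B+ cells, where replicate 6 was highest. Its difference was -9.75 ± 0.76 (adjusted p = 2.43e-07) and -9.40 without CD11B+ replicate 6. Ngp and Ltf, proteins of neutrophil granules, and Ccr2, the receptor of inflammatory monocytes, were above background on 6 CD11B+ and on no O4+ array, and were at least 62.2-fold, 84.5-fold and 14.6-fold higher in CD11B+ cells. Without CD11B+ replicate 6 the bounds of Ngp and Ltf were 45.5 and 62.4. The summed signal of the list was 474 to 690 on the O4+ arrays, 31313 to 42989 on 5 CD11B+ arrays and 162086 on replicate 6, so the difference held on each CD11B+ array and its size there varied. CD11B is carried by neutrophils and monocytes as well, and the protocol named no perfusion or gate against blood cells. Of 10 lymphocyte markers, 5 were higher in CD11B+ cells, among them Cd79b (-5.17 ± 0.27), while Ms4a1 was above background on none of the 12 arrays.

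Neural and vascular markers stood mostly on the O4+ side. Of 15 neuron markers 11 were higher in O4+ cells, with a median of 1.73, led by Dcx (3.27 ± 0.16), Snap25 (3.14 ± 0.10) and Gap43 (3.03 ± 0.11). Oligodendrocyte progenitors also express some of these genes. Of the 15 markers, 11 were above background on all 6 O4+ arrays and 3 on none. The transporters Slc17a7 and Slc17a6 of excitatory neurons were so on 0 and 1 of the 6. The summed signal of the neuron markers was 104448 to 134652 on the O4+ and 12787 to 17137 on the CD11B+ arrays, a ratio of medians of 8.52. Of 12 astrocyte markers 8 were higher in O4+ cells, with a median of 1.11, and the summed signal was 35383 to 49607 on the O4+ and 13247 to 33573 on the CD11B+ arrays. The defining markers Gfap and Aqp4 differed by 1.02 ± 0.27 and 0.55 ± 0.22, the second without a call, although Aqp4 was called without CD11B+ replicate 6, at 0.77. The call of Gfap was lost with slide as a random block (adjusted p = 0.0522) and as a fixed block over 24 arrays (adjusted p = 0.14). Of 14 endothelial, 10 pericyte and 9 fibroblast markers 10, 7 and 5 were higher in O4+ cells, with medians of 0.98, 1.13 and 0.77, and 6 of 8 ependymal and choroid plexus markers were so, with a median of 1.23. CD11B+ replicate 6 stood apart in these lists too, with a fibroblast sum of 5613 against 1710 to 2374 on the other 5 CD11B+ arrays, a pericyte sum of 6474 against 3722 to 4665, and an ependymal and choroid plexus sum of 21167 against 5092 to 9920. Without it 10 astrocyte, 10 endothelial, 7 pericyte, 7 fibroblast and 7 ependymal markers were higher in O4+ cells, with medians of 1.36, 1.03, 1.29, 1.04 and 1.51. The share of each cell type in these signals was not tested. Erythroid markers, by contrast, were higher in CD11B+ cells for 4 of 7 genes with overlapping groups, and their sum was highest on replicate 6, at 170016 against 39947 to 84760 on the other 5, and without it 2 of the 7 were called.

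Largest ratios of medians were taken among probes above background on all 12 arrays whose groups did not overlap. Besides Mbp (131) and Mobp (90.3) they were on the O4+ side Ddc, an aromatic amino acid decarboxylase (104), Sgk2, a kinase (99.6), the noncoding transcript 9630013A20Rik (86.4), Tmem125 (81.1), AI314604 (76.3), Bfsp2 (74.9), Tmem108 (74.7) and Enpp6 (73.4, on its second probe). On the CD11B+ side they were Stfa2, a cystatin-like inhibitor of neutrophils (135), Camp, a granule peptide (91.4), Il1b (81.7), Plbd1 (76.2), Cxcl1 (70.7), Mlxipl (70.2), Ccl7 (69.9), Cd300lf (65.5), Naip6 (62.1) and Gal3st4 (61.5). Stfa2 and Stfa2l1 belong to a family of near-identical copies, and their probes may share signal. Where the dimmer group was above background on no array, the ratio is a bound. The largest bounds higher in O4+ cells were those of Lpar1, a lysophosphatidic acid receptor (at least 73.3-fold), Nfe2l3 (37.7), 4930452G13Rik (35.4), Il23a (29.4), Elapor2 (26.2), Chat (24), Wnt3 (21.8), Pakap (21.7), Gp2 (21.5) and C130030K03Rik (19.8). Il23a encodes the p19 chain of IL23 and was between 8.59 and 9.33 on the O4+ arrays. On the CD11B+ side the largest bounds belonged to Stfa2l1 (169), Cstdc4 (137), Ltf (84.5), Retnlg (68.6), Prg2 (65.8), Ngp (62.2), Neurl3 (50.5), Ifitm6 (47.5), Ear12 (46.6) and Ctsc (41.9, on its dimmer probe). Stfa2, Stfa2l1, Camp, Ltf, Retnlg and Ngp are known from neutrophils and Prg2 and Ear12 from eosinophils. Each of these genes was highest among the CD11B+ arrays on replicate 6, with Prg2 at 11.76 and Ear12 at 10.07 there. Without that array the ratios of Stfa2 and Camp were 123 and 83.8, and the bounds of Stfa2l1, Cstdc4, Retnlg and Ifitm6 were 136, 113, 53.8 and 39.8.

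The comparison changed between P5 and P10. The PBS arrays of P5, 6 of each cell type, were set against those of P10 through the interaction of cell type and age. The O4+ minus CD11B+ difference was higher at P10 for 7610 probes (13.7%) and lower for 8046 (14.5%), so 48.6% of the called changes were upward. That split depended on the scaling, with 64.3% upward under scaling of each array to its 75th percentile and 60.6% in the matrix that the authors deposited, and these shifted the median change of all probes from 0.01 to 0.23 and 0.19. The lists named next kept the sign of their median change under both. Of the 23616 probes called at P10, 17984 were called in the same direction at P5 and 195 in the opposite one. The P5 samples were taken hours after the last injection and the P10 samples 5 days later, so age and time since injection cannot be told apart.

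Late myelin genes were among those whose difference grew. Aspa, the enzyme that releases acetate from N-acetylaspartate for myelin lipid, was lower in O4+ than in CD11B+ cells at P5 by 2.72 and higher at P10 by 3.18, a change of 5.90 (adjusted p = 3.85e-13). Hapln2 changed by 5.60 (adjusted p = 5.36e-11), Opalin, a surface protein of mature oligodendrocytes, by 3.69 (adjusted p = 0.000166), Mog by 3.46 (adjusted p = 7.26e-08) and Mal, a proteolipid of myelin vesicles, by 3.24 (adjusted p = 0.000152). The microtubule organisers Tppp and Tppp3 changed by 3.74 and 4.36. Among probes above background on all 12 arrays of a cell type, the 4 other largest upward changes were those of S1pr5, a sphingosine-1-phosphate receptor of oligodendrocytes (5.70), Gas7 (5.52), Il12rb1 (5.43) and Wipf3 (5.38). Gas7 and Il12rb1 had low O4+ means at P5, of 3.32 and 3.93, and Hapln2 was above background on no CD11B+ array at P10. The sizes of these changes are therefore imprecise. Trf rose from a difference of -2.63 at P5 to 0.08 at P10, a change of 2.70 (adjusted p = 6.42e-11), and Rras2, a small GTPase, from -0.20 to 2.70 (change 2.89, adjusted p = 6.76e-14). Cholesterol enzymes moved with them, with 14 of 20 changes upward and none downward. Structural myelin genes as a list had 9 upward and 3 downward changes.

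Progenitor, microglial and cell cycle genes changed downward. Of 12 progenitor genes 11 had a lower difference at P10 and none a higher one, with Pdgfra going from 4.59 to 2.82 (change -1.77, adjusted p = 2.88e-06). Microglial identity genes were lower in O4+ cells by a median of 3.13 at P5 and 4.72 at P10, with 19 of 22 changes downward and none upward. The difference of Cx3cr1 went from -2.52 to -4.38 (change -1.86, adjusted p = 8.72e-09), as its mean fell from 15.27 to 13.95 on the O4+ arrays and rose from 17.79 to 18.34 on the CD11B+ arrays, and that of Tmem119 went from -3.26 to -4.82 (change -1.56, adjusted p = 2.8e-07). Of 17 myeloid transcription factors 17 changed downward. The border macrophage genes had no downward and 3 upward changes among 11. The upward count was 1 when O4+ replicate 2, 4, 5 or 6 or CD11B+ replicate 3 was left out and with slide or scan date as a block, and 6 under scaling to the 75th percentile. The O4+ minus CD11B+ difference of Mrc1 was -3.84 at P5 and -4.07 at P10 (interaction adjusted p = 0.409). Il1b went from -3.82 to -6.42 (change -2.60, adjusted p = 7.68e-06), and Ccl3 from -3.12 to -5.68 (change -2.57, adjusted p = 8.87e-08). At P5 the median of the 32 chemokines and interleukins was -3.22, close to the microglial median of -3.13 at that age, and 16 of the 32 lay below the latter. At P10 15 of the 32 lay below the microglial median. Cell cycle genes had 24 downward changes and 1 upward change among 28, and Mki67 went from -0.95 to -2.73 (change -1.79, adjusted p = 5.62e-11) as its O4+ mean fell from 13.27 to 11.49 while the CD11B+ mean was 14.21 and 14.23. Other large downward changes were those of Ppp1r3b (-3.14), Dusp2, a phosphatase of activated leukocytes (-2.87), 7330403C04Rik (-2.85) and Zfp791 (-2.83). The size for 7330403C04Rik is imprecise, since it was above background on no O4+ array at P10.

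**Figure D5:**
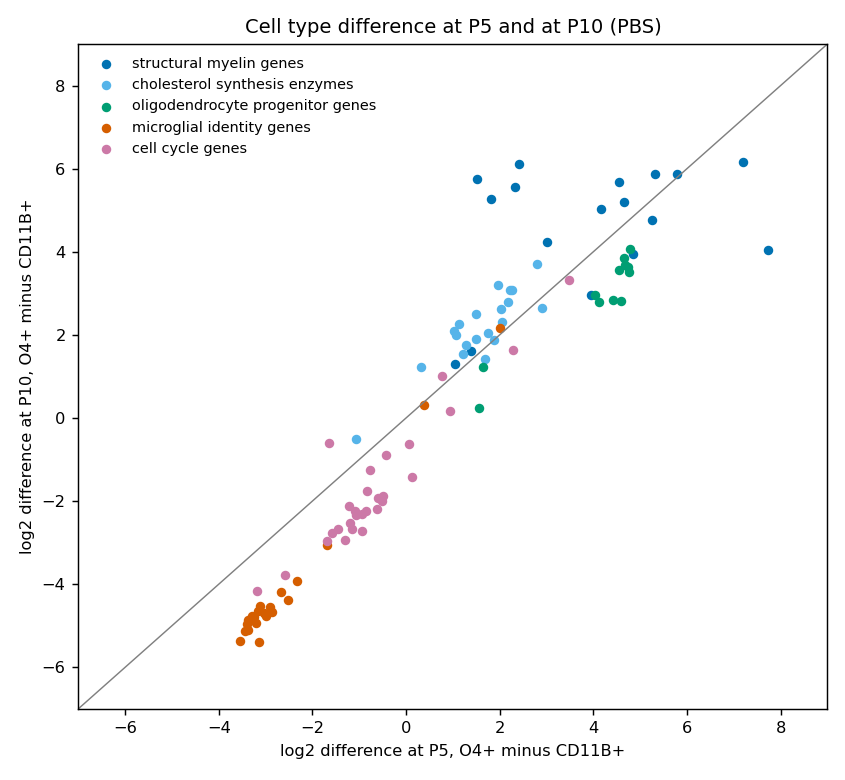
O4+ minus CD11B+ log2 difference at P5 (x axis) and at P10 (y axis) for the genes of 5 lists, 1 point per gene, 6 arrays per group, with the diagonal as a line of no change. Microglial identity and cell cycle genes lie below the diagonal in most cases, and cholesterol enzymes lie above or near it.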

How the data were processed

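Total RNA of O4+ and CD11B+ cells was hybridised to 1-color Agilent arrays. The authors deposited the scanner output of Agilent Feature Extraction, as named in the submitters' processing notes, and per the file headers the intensity used is background-subtracted but not normalized between arrays. The authors also deposited a matrix, used as an alternative, whose values are the ratio of each intensity to the median of its array. Intensities were log2-transformed, quantile-normalized, a step that the methods name, here over 48 arrays, stripped of 278 non-uniform spots and averaged per probe. The tests were those of limma 3.58.1 (R 4.3.3), with Benjamini-Hochberg adjustment over 55681 probes, in place of the methods' t-test, which was an alternative; both used an adjusted p of 0.05 and a ratio of group medians of 1.5. The change with age was the interaction term over 24 PBS arrays, with no ratio threshold. A probe above background on no array of the dimmer group received a lower bound ("at least"), set against the lowest signal among probes well above background. Symbols came from the RefSeq table for 27235 probes and from the files for 5727. Named genes were the listed genes, the 10 largest ratios and bounds in each direction, and the 5 largest changes with age, and a few of these genes are not reported here. The members and gene lists were chosen with earlier results of these data known. Alternatives covered the scaling, background correction, matrix values, filter on dim probes, test, thresholds, slide, scan day, replicate block and each array left out. The procedure was tested on simulated data. IL1B arrays entered the normalization and the fits over 24 P10 or 48 arrays only.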

Additional observations from a re-analysis of the deposited data

Results flagged for a closer look

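A total of 516 sets of 6 arrays, for the named genes and probes, were examined for a single array set apart from the other 5, which chance alone gives in about 1 set of 20, and 68 sets had one. CD11B+ replicate 6 was that array in 35 of them and O4+ replicate 6 in 13. The values below are log2 intensities, with the range of the other 5 arrays of the group in brackets. Neutrophil and MHC genes set apart on CD11B+ replicate 6 were S100a9 at 16.48 (14.12 to 14.68), Cd74 at 13.21 (11.19 to 11.74), B2m at 16.60 (15.90 to 16.11), H2-Ab1 at 12.92 (11.38 to 11.88), H2-K1 at 15.87 (14.75 to 14.97), H2-D1 at 15.77 (14.24 to 14.67) and Ly6g at 6.66 (4.02 to 4.80). To these were added Ngp at 12.06 (9.07 to 9.67), Ltf at 12.44 (9.39 to 10.10), Stfa2 at 14.03 (11.56 to 12.48), Camp at 14.25 (11.24 to 11.95), Plbd1 at 12.56 (10.83 to 11.31), Stfa2l1 at 12.79 (10.65 to 11.29) and Cstdc4 at 12.39 (10.39 to 10.99). The same array held Retnlg at 11.76 (9.38 to 10.25) and Ifitm6 at 10.71 (8.92 to 9.33). Other genes set apart on that array were Mef2a at 11.89 (12.18 to 12.25), Fcgr4 at 10.54 (8.95 to 9.52), Cd55 at 7.24 (5.98 to 6.35), Serping1 at 7.62 (5.85 to 6.48), C4b at 12.52 (9.72 to 10.11), Cxcl1 at 11.82 (11.19 to 11.39) and Ccl5 at 11.77 (7.91 to 8.43). Also apart there were Clec7a at 11.70 (10.50 to 10.81), Itgax at 11.27 (10.13 to 10.40), Fabp5 at 13.76 (12.76 to 12.85), Axl at 10.78 (9.34 to 9.73), Grm3 at 7.01 (5.19 to 5.62), Kcnj10 at 12.35 (11.40 to 11.75) and Ccnd2 at 9.99 (8.51 to 8.87). The array further showed Gfap at 7.99 (6.20 to 6.58), Aqp4 at 9.76 (8.33 to 8.68), Nfe2l3 at 1.47 (3.06 to 3.37), Ctsc at 13.54 (12.94 to 13.12) and Ctsc probe A_55_P2072005 at 9.83 (9.06 to 9.21).

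Among O4+ arrays, replicate 6 was set apart for Sox10 at 16.17 (15.48 to 15.65), Myrf at 9.09 (7.89 to 8.33), Siglech at 16.51 (16.95 to 17.06), Tcf7l2 probe A_55_P2030160 at 11.22 (10.24 to 10.55), Tcf7l2 probe A_55_P2260094 at 6.76 (8.29 to 8.83), Ermn at 12.26 (13.80 to 14.62) and Srebf2 at 10.85 (10.23 to 10.44). It was also set apart for Nfkbib at 13.95 (13.25 to 13.49), Cd9 at 15.58 (16.09 to 16.27), Lgi3 at 14.47 (13.61 to 13.71), Cdk4 at 14.73 (14.87 to 14.95), Ly6g at 1.82 (4.31 to 5.39) and Ear12 at 3.17 (1.65 to 1.69). Other O4+ arrays set apart were those of Tmem100 at 9.84 (10.02 to 10.11), S100a9 at 1.53 (5.25 to 6.59), C1qc at 12.41 (11.67 to 11.79), Mrc1 at 9.94 (10.39 to 10.53), Rac2 at 9.05 (8.47 to 8.69), Ngp at 2.63 (1.55 to 1.72) and Ccr2 at 1.96 (1.57 to 1.65). The rest of the O4+ arrays set apart were those of Slc17a7 at 1.54 (2.92 to 3.42), Sgk2 at 13.12 (13.33 to 13.45), Gp2 at 9.09 (8.10 to 8.45), Retnlg at 3.95 (1.65 to 1.97) and Aspa at 9.59 (10.06 to 10.24). CD11B+ arrays other than replicate 6 were set apart for Csf1r at 17.87 (18.22 to 18.42), Cxcl5 at 2.34 (1.67 to 1.82), Ackr3 at 9.99 (9.29 to 9.47), Mrc1 at 14.23 (14.43 to 14.51), Tgfb1 at 12.69 (12.46 to 12.52) and Erbb3 at 8.29 (1.49 to 3.05). The rest of these were Gsn at 11.92 (10.67 to 11.13) and Lpar1 at 2.59 (3.44 to 3.91). No array of the group concerned was above background for Cxcl5, Lpar1 and Nfe2l3 in CD11B+ cells or for Ngp, Ccr2, Slc17a7, Retnlg and Ear12 in O4+ cells, so these values have only a bound.

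The O4+ minus CD11B+ difference changed between P5 and P10, by the interaction term of limma, for 23 of the 24 genes whose change is given above. It was higher at P10 for Aspa (5.90), S1pr5 (5.70), Hapln2 (5.60), Gas7 (5.52), Il12rb1 (5.43), Wipf3 (5.38), Tppp3 (4.36), Tppp (3.74), Opalin (3.69), Mog (3.46), Mal (3.24), Rras2 (2.89) and Trf (2.70). It was lower for Ppp1r3b (-3.14), Dusp2 (-2.87), 7330403C04Rik (-2.85), Zfp791 (-2.83), Il1b (-2.60), Ccl3 (-2.57), Cx3cr1 (-1.86), Mki67 (-1.79), Pdgfra (-1.77) and Tmem119 (-1.56). The sizes for Hapln2, Gas7, Il12rb1 and 7330403C04Rik rest in part on dim values, as given above. The cause of these changes was not tested.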

How the results depend on the processing

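The counts of 12353 probes higher in O4+ cells and 11263 higher in CD11B+ cells stayed within 1.5 times under the alternatives run, other than a ratio threshold of 4, which left 4818 and 4301. Leaving out 1 array at a time gave 12097 to 12311 and 11055 to 11356. Background correction by normexp gave 8369 and 7829, and the deposited matrix values gave 11252 and 12824, with the median of all probes at -0.16 in place of 0. Slide as a random block gave 11196 and 10397, and slide as a fixed block over 24 arrays, an alternative chosen after seeing the data, gave 11144 and 10341. For the change with age (7610 higher and 8046 lower), a threshold of 1.5-fold left 4897 and 5336, scaling to the 75th percentile gave 10704 and 5940, and leaving out 1 array at a time gave 7207 to 7858 and 7689 to 8446. With replicate number as a block the counts were 12319 and 11262 at P10 and 7768 and 8136 for age, and H2-Ab1 and Il1r1 were not called (adjusted p = 0.0501 and 0.0598). Deviations from the group means correlated between -0.04 and 0.33 for arrays of the same number. Those of other numbers correlated between -0.35 and 0.52. The 4 of 6 O4+ arrays that correlated best with their own number were replicates 1 to 4, at 0.29, 0.33, 0.23 and 0.22. Replicate 5 stood at -0.04 with its own number, and replicate 6 correlated best with CD11B+ replicate 5, at 0.52. The paper reports that the same pups gave both cell types, but the labels do not tie the numbers to pools. Whether equal numbers mark a shared pool was not tested, and the main fit left the arrays unpaired. The list of actin, microtubule and process genes, at a median of 0.38, went to 0 with the matrix values, and the medians of the other 37 lists kept their sign. Averaging the probes of a gene turned Itgam to -1.94, Siglech to -2.40, Cp to 0.12 and Srebf2 to -1.51. Of 258 named differences 207 kept their call and direction under every alternative run, and so did 24 of 24 named changes with age. Besides the ratio threshold of 4 and the genes given above, calls were lost by Galc, Il34, Heph and the dimmest Mbp probe with normexp, by Cd47 and Tcf7l2 with the matrix values, by Gfap with slide as a block and by Tfeb over its probes, and Heph also lost its call when O4+ replicate 3, 4, 5 or 6 or CD11B+ replicate 1, 2 or 3 was left out. The cause of the changes was not tested, except that a stricter threshold calls fewer probes by construction. The number of arrays and signal near background limit the precision: 16929 of 55681 probes were above background on none of the 12 arrays.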
